A study of Mus musculus with 2 samples.

Results

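The genes described here are 8 members of the interleukin 10 and interleukin 6 signalling system, of 27998 genes in the count matrices: the ligands Il10, Il6 and Osm, the receptor chains Il10ra, Il10rb, Il6ra and Il6st, and the feedback inhibitor Socs3. They were chosen by symbol, and their UMIs (unique molecules counted) were summed over the cells of each deposited cell label in each library. All 8 were present in both matrices and had UMIs in both. The study placed YUMM1.7 cells, a mouse melanoma line, beneath the skin of the flank in human APOE knock-in mice, whose allele was either APOE2 or APOE4. Tumours were taken on day 19, and 10000 living CD45+ cells (leukocytes, negative for the dead-cell dye DAPI) were sorted from each of 6 mice per genotype and pooled. Each pool of 60000 cells gave 1 droplet library (10x Genomics 3′ chemistry, version 3) with 5000 cells targeted, so both groups carry a human APOE knock-in and differ in the allele. Mouse age and sex were not used here.

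Interleukin 10 acts through a pair of Il10ra and Il10rb chains and restrains macrophages and dendritic cells. Interleukin 6 binds Il6ra, and the complex then signals through Il6st (gp130); oncostatin M, encoded by Osm, belongs to the same family and also uses Il6st. All of these receptors activate STAT3, which induces Socs3, and the Socs3 protein in turn blocks gp130 signalling but not the interleukin 10 receptor.

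The libraries held 5063 barcodes and 41207514 UMIs (APOE2) and 5689 barcodes and 37349222 UMIs (APOE4), of which 4665 and 5385 cells were annotated by the authors with 26 labels. The median annotated cell had 7160 UMIs in the APOE2 library and 5560 in the APOE4 library, and the libraries shared 9 barcodes, 8 of them annotated in both. Ptprc, which encodes CD45, had a UMI in 91.0% and 95.8% of annotated cells. Reads on mouse Apoe gave 6434 and 3202 UMIs, but the mouse gene model does not tell the human alleles apart, so this gene does not check the genotypes. The 4 labels named MDSC (myeloid-derived suppressor cells) carried the neutrophil markers at a summed 41587 to 294143 CPM (UMIs per 1000000 UMIs of the label), against 24.9 to 6407 in the other labels; they are called neutrophil-like below. With 1 library per genotype there is no replicate, no test of genotype was possible, and a difference between genotypes cannot be told apart from one between libraries, pools or tumours. Intervals are exact 95% intervals that cover counting error only, and since UMIs of 1 cell are not independent, they are too narrow for genes held by few cells.

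Il10 (chromosome 1, 131019845 to 131024974, plus strand, mm10) encodes interleukin 10. The cells labelled CD4+ T cells had the highest level among the 19 labels with at least 50 cells in each library. Il10 stood at 120 CPM in the APOE2 library and 108 in the APOE4 library, from 108 and 130 UMIs. The second label was Mø cluster 2 (macrophages) with 44.8 and 41.7 CPM, and in both libraries its interval overlapped neither the CD4+ label above it nor the label below it. Next came the label Diverse with 24.3 and 20.7 CPM and Mø cluster 1 with 22.7 and 11.9 CPM, and their intervals overlapped each other in both libraries. No Il10 UMI was found in NK cluster 2, NKT cells, G-MDSC 1 or stromal cells of either library.

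Il10 was a gene of few cells. In the CD4+ label 22 of 237 APOE2 cells (9.28%) and 34 of 303 APOE4 cells (11.2%) held an Il10 UMI. In NK cluster 2, which served as a cell type without the gene, 0 of 214 and 0 of 631 cells did, which, at 3 cells of the total as the limit for a count of 0, allows shares of cells with a UMI (not of cells that express the gene) of up to 1.40% and 0.475%; its median depth was 4609 and 3817 UMIs, against 3389 and 3405 in the CD4+ label. Regulatory T cells are a known source of interleukin 10, and the CD4+ label held 386 and 332 UMIs of Foxp3, their defining transcription factor. Its cells with a Foxp3 UMI had 155 CPM of Il10 (125 to 190) in the APOE2 library and 123 (96.0 to 156) in the APOE4 library. Cells of the label without one had 54.5 CPM (31.8 to 87.3) and 94.6 (72.4 to 122), and the intervals of these levels overlapped in the APOE4 library. The shares of cells with an Il10 UMI, 12.9% (7.80% to 19.6%) with Foxp3 and 4.12% (1.13% to 10.2%) without it in the APOE2 library, had overlapping intervals in both libraries. One APOE4 cell of this label held 35 of its 130 Il10 UMIs.

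In monocytes and macrophages together (Monocytes 1 to 3, both Mø clusters and skin resident Mø) Il10 was at 21.8 CPM in the APOE2 library and 9.72 in the APOE4 library, 352 and 119 UMIs. The APOE4 level was 0.447 times the APOE2 level (0.360 to 0.551). Within labels, Mø cluster 1 had a ratio of 0.525 (0.342 to 0.783), Monocytes 1 of 0.412 (0.159 to 0.954) and Monocytes 2 of 0.233 (0.0846 to 0.595). Mø cluster 2, the macrophage label richest in Il10, had a ratio of 0.93 (0.693 to 1.24) and made up 398 of the 1734 APOE2 cells but 161 of the 1557 APOE4 cells of the class. The class ratio thus joins lower levels in several labels with a smaller share of Mø cluster 2. The mean of the single labels' log2 ratios (called equal weight per label below) was -0.97, beside -1.16 for the class. That mean is not the class ratio at equal label shares. It counts Monocytes 2 (14 and 8 UMIs) and Monocytes 3 (3 and 3 UMIs) as much as Mø cluster 2. Il10 was lower in the APOE4 library in 7 of the 7 labels that had at least 20 of its UMIs, with a median ratio of 0.670.

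Il6 (chromosome 5, 30013114 to 30019981, plus strand) was densest in 2 rare labels. The 12 APOE2 cells labelled basophils held 102 Il6 UMIs, 2 to 16 per cell, and all 12 had at least 2. The 11 APOE4 basophils held 64, with 6 of the 11 cells above 0 and 32 UMIs in a single cell. These sums are 3033 and 1804 CPM, and the label made up 0.257% and 0.204% of annotated cells but 14.7% and 13.1% of the Il6 UMIs. Cells labelled mast cells followed with 122 and 115 CPM, from 36 and 19 UMIs in 48 and 24 cells. The basophil label carried all 5 mast cell and basophil markers in both libraries, among them the basophil protease Mcpt8 at 1576 and 1438 CPM. In the mast cell label Mcpt8 was at 116 and 2592 CPM and Cpa3 at 16116.5 and 9337 CPM. Mcpt8 therefore did not set the basophil label apart in the APOE4 library. The part of this differing marker content in the mast cell Il6 values was not tested. No Il6 UMI was found in the CD4+ label (0 of 237 and 0 of 303 cells, with the same limit at 1.27% and 0.99%), at a median depth of 3389 and 3405 UMIs against 2714 and 3423 in basophils.

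Among the larger labels, Il6 was highest in Mø cluster 2 (49.6 and 44.2 CPM), migratory DCs (43.1 and 36.3 CPM) and Monocytes 3 (27.1 and 43.4 CPM), and the intervals of neighbours in this order overlapped. Monocytes 2 followed at 25.3 and 33.2 CPM, with an interval that overlapped that of Monocytes 3 in both libraries. It held 5.76% and 26.3% of all Il6 UMIs, against 30.0% and 14.5% in Mø cluster 2. Il6 and Il10 therefore shared Mø cluster 2 as a leading macrophage label, while migratory DCs, with 3 and 1 Il10 UMIs, held Il6 almost without Il10. At the class level Il6 was at 21.9 and 23.4 CPM in monocytes and macrophages, a ratio of 1.07 (0.913 to 1.25), and at 10.2 and 11.4 CPM in DCs (cDC 1, cDC 2, migratory and plasmacytoid), a ratio of 1.12 (0.818 to 1.52). These class ratios took other values with thinned cells and with equal weight per label, and the part of depth was not tested. In DCs the log2 ratio of 0.16 was 1.31 with thinned cells, from 8 APOE2 and 17 APOE4 UMIs. With equal weight per label it was 0.79, a mean that cDC 1 entered with 4 and 3 UMIs. In monocytes and macrophages the log2 ratio of 0.10 turned to -0.15 when every cell was thinned to 1500 UMIs and to -0.16 with equal weight per label.

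Single labels differed in opposite directions for Il6. In cDC 2 (conventional dendritic cells) 10 UMIs in 7 of 411 APOE2 cells stood against 35 UMIs in 15 of 290 APOE4 cells, 2.31 and 11.4 CPM, a ratio of 4.91 (2.38 to 11.1). In monocytic DCs 59 UMIs in 15 of 233 APOE2 cells stood against 4 UMIs in 3 of 120 APOE4 cells, 13.8 and 1.64 CPM, a ratio of 0.119 (0.0315 to 0.322), and 1 APOE2 cell held 18 of the 59. Beside this, the summed monocyte markers were at 1051 and 3085 CPM in cDC 2, and the macrophage markers at 783 and 225 CPM in cDC 2 and 8145 and 5755 CPM in monocytic DCs; their part in these Il6 values was not tested.

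**Figure D1:**
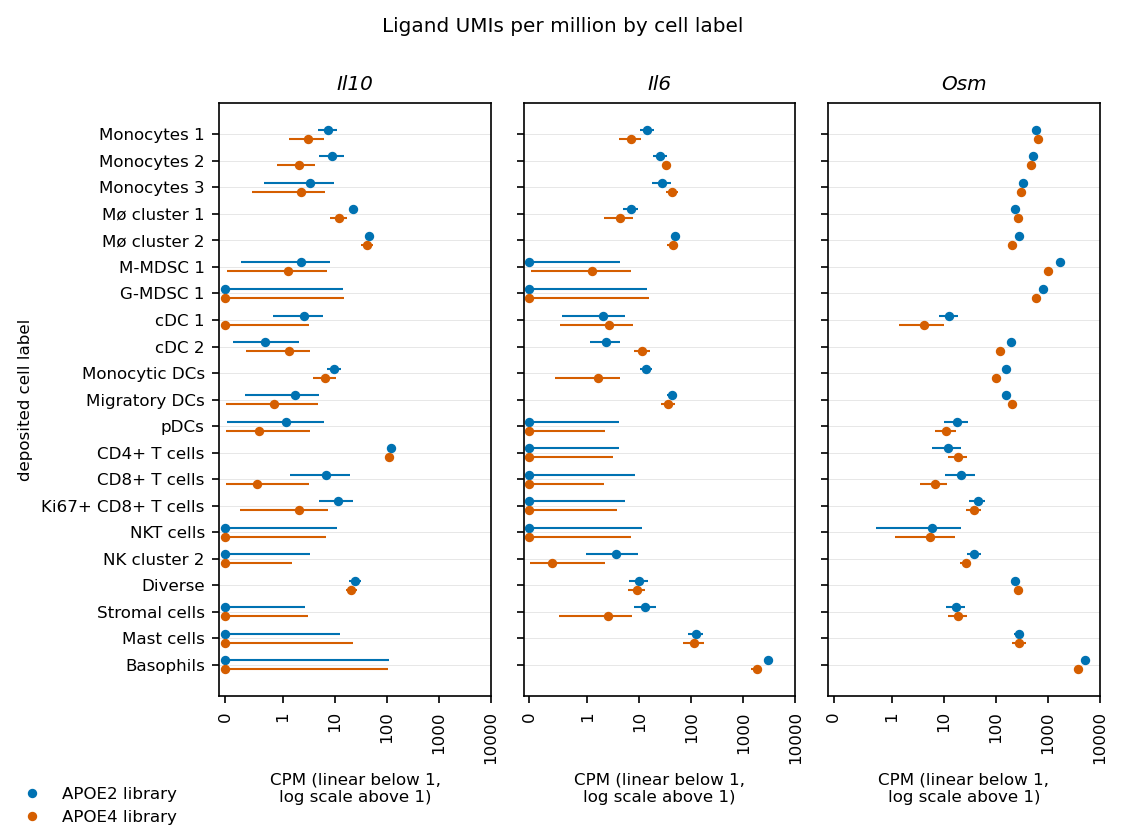
CPM of Il10, Il6 and Osm on the horizontal axis (linear below 1, log scale above) for the 19 labels with at least 50 cells in each library plus mast cells and basophils; points are the 2 libraries and lines the exact 95% Poisson interval. Il10 peaks in CD4+ T cells (120 and 108 CPM), while Il6 (3033 and 1804 CPM) and Osm (5234 and 3834 CPM) peak in the few basophils.

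Osm (chromosome 11, 4236420 to 4241026, plus strand) encodes oncostatin M. It too was densest in basophils, with 176 and 136 UMIs or 5234 and 3834 CPM, in 12 of 12 and 8 of 11 cells. Unlike Il6, it was high in the neutrophil-like cells: M-MDSC 1 had 1768 CPM in the APOE2 library and 1039 in the APOE4 library, above every other label of 50 cells or more in both. G-MDSC 1, with 830 and 603 CPM, and Monocytes 1, with 594 and 644, came next in either order. The other monocytes, the macrophages, cDC 2, migratory DCs and monocytic DCs lay lower, between 102 and 526 CPM. In cDC 1, pDCs and the CD4+, CD8+, NKT and NK cluster 2 labels no value was above 38.9 CPM.

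In the 4 neutrophil-like labels together Osm was at 1412 CPM in the APOE2 library and 885 in the APOE4 library, 2055 and 1407 UMIs. The ratio was 0.627 (0.585 to 0.671), and all 4 labels had a lower APOE4 level: M-MDSC 1 had a ratio of 0.588 and M-MDSC 2 of 0.409, and the G-MDSC labels had 0.727 and 0.736. The class differed little in depth, with a median of 1666 and 1682 UMIs per cell, and 62.7% and 50.8% of its cells held an Osm UMI. Thinned to 1500 UMIs, 65.3% of 308 M-MDSC 1 cells (59.7% to 70.6%) in the APOE2 library and 47.5% of 282 (41.6% to 53.5%) in the APOE4 library held one; 207 and 171 shallower cells were left out. Tissue dissociation is known to induce a set of 13 genes examined here (Fos, Jun, Hspa1a and others). In this class 5 of the 13 were at least 1.5-fold lower and 0 higher in the APOE4 library, against 12.5% and 12.1% of all genes. The sum of the 13 was 20659 and 18727 CPM. Among the 5, Hspa1a was at 203 and 16.4 CPM and Hspa1b at 272 and 15.7 CPM. In monocytes and macrophages 3 of the 13 were lower and 0 higher, beside 14.9% and 8.12% of all genes. In DCs 2 were lower and 1 higher, beside 7.28% and 10.7%. In T cells 3 were lower and 1 higher, beside 8.82% and 7.89%. In NK cells 1 was lower and 1 higher, beside 6.93% and 10.8%. The part of these genes in the levels of Osm or of other members was not tested.

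Osm was also lower in the APOE4 library in cDC 2, at 200 and 122 CPM with a ratio of 0.609 (0.538 to 0.689), in monocytic DCs, with a ratio of 0.638 (0.549 to 0.739), and in Mø cluster 2, with a ratio of 0.740 (0.654 to 0.837). It was higher in migratory DCs, at 162 and 211 CPM with a ratio of 1.30 (1.09 to 1.54). Over DCs as a class the ratio was 0.682 (0.619 to 0.751), a log2 ratio of -0.55 that was -0.07 after thinning. Over monocytes and macrophages it was 1.22 (1.17 to 1.27), from 337 and 410 CPM; that log2 ratio of 0.29 was -0.07 with equal weight per label, and 3 of the 5 larger labels of the class had ratios below 1.

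Il10ra (chromosome 9, 45253837 to 45269149, minus strand) encodes the chain that binds interleukin 10. It was broadly present, from 33.1 CPM (NKT cells) to 247 (M-MDSC 1) in the APOE2 library among the 18 leukocyte labels, and at 4.37 and 1.64 CPM in the stromal cells, from 6 and 2 UMIs. The first 4 labels in both libraries were M-MDSC 1, G-MDSC 1, Monocytes 1 and Monocytes 2. Il10ra was higher in the APOE4 library in 15 of 18 labels with at least 20 UMIs, with a median ratio of 1.25 and a range of 0.872 to 2.07. The interval lay above 1 in 9 of these labels and below 1 in 0.

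The highest ratio, 2.07 (1.32 to 3.33), was in the label Ki67+ CD8+ T cells, whose neutrophil markers summed to 5907 and 6407 CPM and whose CD8 markers summed to 55.1 and 644; their part was not tested. In NK cells (both NK clusters) Il10ra was at 46.9 and 94.4 CPM, from 62 and 286 UMIs, a ratio of 2.01 (1.52 to 2.69). NK cluster 1 had a ratio of 2.0 from 23 and 108 UMIs and NK cluster 2 a ratio of 2.0 from 39 and 178 UMIs, so both clusters showed it. The summed macrophage markers in NK cluster 2 were at 46.2 and 16.7 CPM, and among cells without any macrophage marker UMI the ratio was 2.08 (1.41 to 3.18). In the label CD8+ T cells Il10ra was at 85.7 and 154 CPM, a ratio of 1.80 (1.28 to 2.58), beside CD8 markers at 844 and 2133 CPM whose part was not tested, while in the CD4+ label it was at 86.8 and 78.9 CPM, a ratio of 0.909 (0.667 to 1.24).

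In monocytes and macrophages Il10ra was at 123 and 186 CPM, a ratio of 1.52 (1.43 to 1.61), the opposite direction to the Il10 ligand in the same cells. The single labels had smaller ratios, from 1.10 in Mø cluster 2 to 1.29 in Mø cluster 1, and with equal weight per label the log2 ratio was 0.24 instead of 0.60. It dropped below 1.5-fold, to log2 ratios of 0.44 to 0.55, with thinned cells, with cells under 5% mitochondrial UMIs and with totals without ribosomal and mitochondrial genes. Monocytes 2, rich in Il10ra at 214 and 256 CPM, made up 206 of the 1734 APOE2 cells and 526 of the 1557 APOE4 cells of the class. In cDC 1 the ratio was 1.71 (1.29 to 2.26), from 52.8 and 90.2 CPM, and in neutrophil-like cells together it was 1.03 (0.883 to 1.21).

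Il10rb (chromosome 16, 91406164 to 91425834, plus strand) encodes the second chain, which several cytokines of the interleukin 10 family share. Its levels ranged from 32.8 to 210 CPM in the APOE2 library and from 25.8 to 212 in the APOE4 library, and cDC 1 and stromal cells were lowest in both. By class its ratio between the libraries was 0.981 (0.922 to 1.04) in monocytes and macrophages, 1.03 in neutrophil-like cells, 1.13 in DCs (a log2 ratio of 0.17 that was -0.01 with thinned cells and -0.11 with equal weight per label), 0.984 in T cells and 1.21 (1.00 to 1.48) in NK cells. Of the 19 labels 9 were higher and 10 lower, with a median ratio of 0.992 and a range of 0.657 to 1.16. The interval lay below 1 in monocytic DCs, with a ratio of 0.718 (0.60 to 0.857), and above 1 in 0 labels.

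Il6ra (chromosome 3, 89864059 to 89913196, minus strand) binds interleukin 6, and Il6st (chromosome 13, 112464070 to 112510086, plus strand) is the signalling chain gp130. Among the 19 labels with at least 50 cells in each library, those richest in one chain were not those richest in the other. Il6ra was highest in Monocytes 3 (242 and 253 CPM), G-MDSC 1 (207 and 207) and M-MDSC 1 (155 and 223). Il6st was highest in stromal cells (101 and 97.0 CPM) and the CD4+ label (93.5 and 101), followed by NKT cells (75.3 and 63.1) and migratory DCs (73.4 and 66.6).

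The neutrophil-like cells held Il6ra almost without Il6st. M-MDSC 1 had 137 and 178 Il6ra UMIs but 1 and 2 Il6st UMIs, and G-MDSC 1 had 54 and 50 Il6ra UMIs but 1 and 0 of Il6st. In NK cluster 2 both were near 0, with 1 and 3 Il6ra UMIs and 3 and 9 Il6st UMIs in 214 and 631 cells. NKT cells had the reverse of the neutrophil-like pattern, with 4 and 1 Il6ra UMIs beside 25 and 34 of Il6st. The CD4+ label and Monocytes 3 were above 40 CPM for both chains in both libraries. Across the 19 labels, both libraries summed, the Pearson correlation of the log2 levels of Il6ra and Il6st was -0.18, a description over labels that share 2 libraries and differ in depth.

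**Figure D2:**
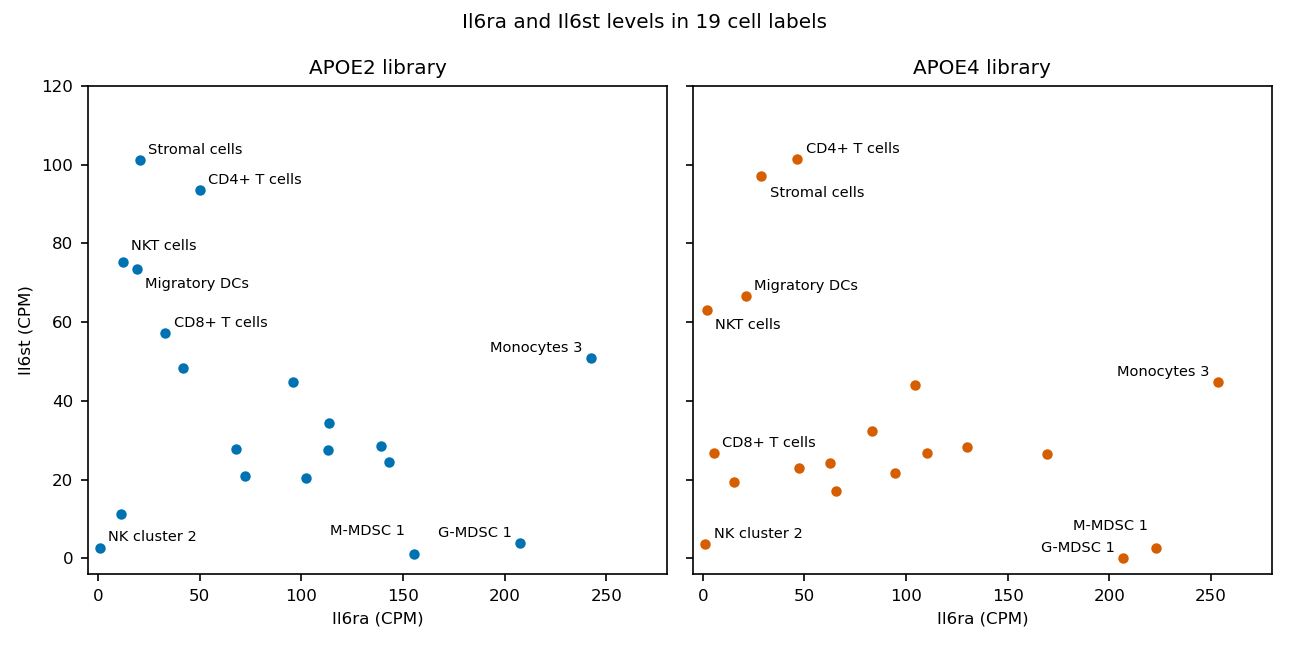
Il6ra CPM (horizontal) against Il6st CPM (vertical), 1 point per label with at least 50 cells in each library, APOE2 library on the left and APOE4 library on the right. M-MDSC 1 and G-MDSC 1 lie at 155 to 223 CPM of Il6ra with Il6st at most 3.84 CPM, while NK cluster 2 lies near 0 on both axes.

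In neutrophil-like cells Il6ra was at 144 and 202 CPM, a ratio of 1.40 (1.17 to 1.67), and M-MDSC 1 had a ratio of 1.44 (1.14 to 1.81) against 0.996 in G-MDSC 1. In DCs the ratio was 0.908 (0.808 to 1.02), a log2 ratio of -0.14 that was 0.04 with equal weight per label. In monocytes and macrophages it was 1.17 (1.10 to 1.25), but the labels of that class went both ways. Ratios were 1.18 in Monocytes 1, 1.05 in Monocytes 3 and 1.08 in Mø cluster 1. They were 0.934 in Monocytes 2, 0.835 in Mø cluster 2 and 0.523 (0.136 to 1.45) in skin resident Mø. The part of the label mix in the class ratio was not tested. Il6st was at 25.0 and 28.6 CPM in monocytes and macrophages, a ratio of 1.14 (0.989 to 1.32), and at 42.1 and 38.4 CPM in DCs, a ratio of 0.912 (0.778 to 1.07). In pDCs alone Il6st was at 48.3 and 23.0 CPM, a ratio of 0.476 (0.30 to 0.751).

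In T cells (CD4+, CD8+ and NKT labels) Il6ra was at 38.0 CPM in the APOE2 library and 19.0 in the APOE4 library, a ratio of 0.499 (0.349 to 0.715), and Il6st at 80.1 and 57.7 CPM, a ratio of 0.721 (0.577 to 0.903). The CD4+ label, the richest of the 3 in both chains, had ratios of 0.929 (0.616 to 1.41) for Il6ra and 1.08 (0.814 to 1.45) for Il6st. The CD8+ label had 0.169 (0.0681 to 0.403) for Il6ra, from 15 and 10 UMIs, and 0.469 (0.285 to 0.788) for Il6st, from 26 and 48. The CD8+ label made up 113 of 430 APOE2 cells and 477 of 910 APOE4 cells of the class. Il10 in T cells had a class ratio of 0.563 (0.434 to 0.732), from 65.9 and 37.1 CPM, beside 0.898 (0.691 to 1.17) in the CD4+ label that held most of it. Among CD4+ cells without a macrophage marker UMI it was 0.692 (0.510 to 0.938), from 92 and 87 UMIs. A single APOE4 cell held 35 of the 130 Il10 UMIs of the whole CD4+ label. Its part in these ratios was not tested.

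The CD8+ label was not the same mixture in both libraries. Its 2 CD8 markers, Cd8a and Cd8b1, summed to 844 and 2133 CPM, its macrophage markers to 284 and 66.5 and its neutrophil markers to 448 and 117. Among its cells without a macrophage marker UMI, 88 and 418 cells, Il6ra was at 31.4 and 5.90 CPM, a ratio of 0.188 (0.0676 to 0.515), and Il6st had a ratio of 0.528 (0.295 to 0.988), ratios close to those of the whole label. The part of the differing CD8 content was not tested.

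Socs3 (chromosome 11, 117966079 to 117970047, minus strand) encodes the suppressor that STAT3 induces. It was highest in M-MDSC 1 in both libraries, at 727 and 575 CPM, with an interval above that of the next label, Monocytes 3, at 433 and 472 CPM. Levels in the CD4+, CD8+, Ki67+ CD8+, NKT and NK cluster 2 labels were lower, from 65.0 to 169 CPM in the APOE2 library and from 57.0 to 158 in the APOE4 library. NK cluster 1, a smaller label, was at 212 and 225 CPM. Socs3 was thus present in the NK clusters with hardly any Il6ra or Il6st.

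Socs3 differed between the libraries in opposite directions in different classes. It was at 294 and 394 CPM in monocytes and macrophages, a ratio of 1.34 (1.29 to 1.39). The labels of that class with at least 50 cells in each library had smaller ratios, from 1.09 (Monocytes 3) to 1.33 (Monocytes 1). Socs3 was at 541 and 452 CPM in neutrophil-like cells, a ratio of 0.837 (0.755 to 0.927), and at 233 and 200 CPM in DCs, a ratio of 0.855 (0.799 to 0.915). Labels within these classes also differed in direction. M-MDSC 2 had a ratio of 1.22 (0.807 to 1.92), against 0.294 to 0.821 in the other neutrophil-like labels. Migratory DCs had 1.26 (1.03 to 1.55), against 0.692 to 0.805 in the other DC labels. In T cells the ratio was 0.702 (0.587 to 0.841), of which the CD8+ label had 0.471 and the CD4+ label 0.920. In NK cells it was 1.03 (0.872 to 1.22). The label Ki67+ CD8+ T cells had a ratio of 1.75 (1.23 to 2.52), but this label carried neutrophil markers at 5907 and 6407 CPM and CD8 markers at 55.1 and 644; their part was not tested.

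Since Socs3 is the member that STAT3 induces, the 250 bases upstream of the RefSeq start (GRCm38.p6) were searched for TTCNNNGAA, a motif that pairs of STAT proteins bind and that is the same on both strands. The promoter table matched 4 of the 8 members (Il6, Il6ra, Il6st and Socs3). The motif was found in 1 of these 4 windows, that of Socs3, and in 2306 of 32851 windows of all genes (7.02%). It lay at chr11:117969512-117969520, 154 to 146 bases upstream of the start, inside the GENCODE span of the gene and outside its exons. It is printed with 10 bases on either side, 5′ to 3′ on the minus strand, the motif in capitals. A match is a description of letters, and no match says nothing about binding.
Socs3 upstream site: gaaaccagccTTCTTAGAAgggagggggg

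**Figure D3:**
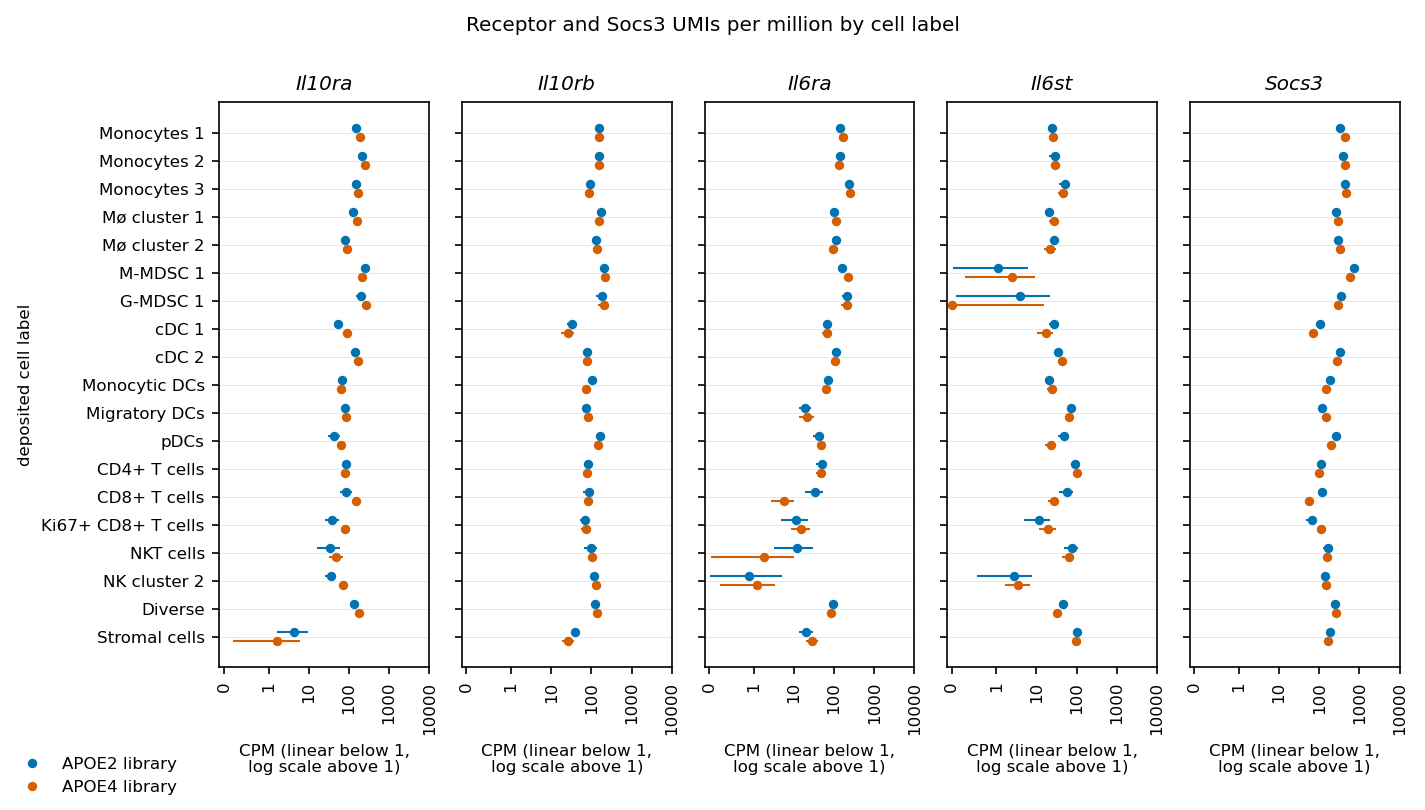
CPM of the 4 receptor chains and Socs3 (horizontal axis, linear below 1, log scale above) in the 19 labels with at least 50 cells in each library, points for the 2 libraries and lines for the exact 95% Poisson interval. Il6st lies between 0 and 3.84 CPM in M-MDSC 1 and G-MDSC 1, where Il6ra is at 155 to 223 CPM.

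Past a ratio of 1.5, counted among members whose UMIs in a class reached 20, 1 of 8 members was higher in the APOE4 library in monocytes and macrophages (Il10ra) and 1 lower (Il10), where 8.12% of all genes tested were higher and 14.9% lower. In neutrophil-like cells 0 of 5 members were higher and 1 lower (Osm), against 12.1% and 12.5% of all genes. In DCs 0 of 7 passed in either direction, against 10.7% and 7.28%. In T cells 0 of 7 were higher and 2 lower (Il10 and Il6ra), against 7.89% and 8.82%, and in NK cells 2 of 5 were higher (Il10ra, and Il6st with 4 and 16 UMIs and a ratio of 1.74, 0.563 to 7.17) and 0 lower, against 10.8% and 6.93%. In T cells Il10 did not reach 1.5-fold with thinned cells (log2 ratio -0.55), nor Il6ra with cells under 5% mitochondrial UMIs (-0.58). With so few members, counts of 0 to 2 are not set apart from these shares.

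**Figure D4:**
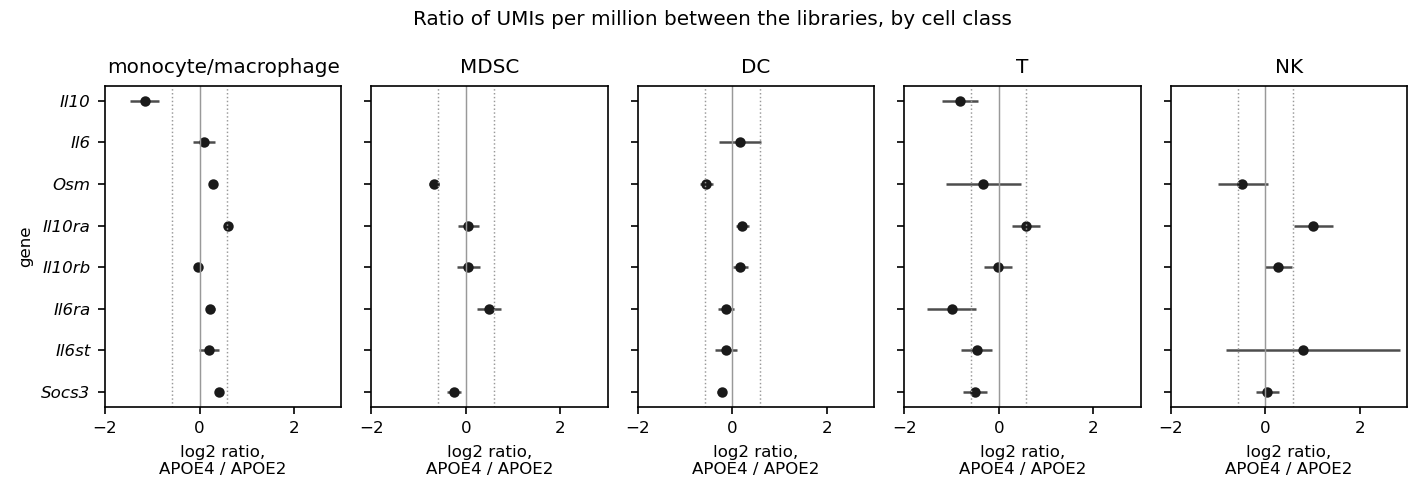
Log2 ratio of CPM, APOE4 over APOE2 library, for members that reached 20 UMIs in a class; lines are exact 95% intervals for counting error and dotted lines mark 1.5-fold. Il10 lies left of 0 in monocytes and macrophages (-1.16) and T cells (-0.83), and Il10ra lies right of 0 in all 5 classes, by 1.01 in NK cells and by 0.05 in neutrophil-like cells.

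The wider pathway was followed in a list of 48 other genes: further ligands and receptors of both families, the kinases and STAT factors, feedback inhibitors, the proteases that shed receptors, and genes induced through STAT3. In monocytes and macrophages 7 of 33 measured list genes were higher past 1.5-fold and 3 lower, beside 8.12% and 14.9% of all genes, with a median log2 ratio of 0.20 against -0.07 over all genes. In neutrophil-like cells 4 of 25 were higher and 1 lower, beside 12.1% and 12.5% of all genes, and in DCs 4 of 31 were higher and 2 lower, beside 10.7% and 7.28%. In T cells 2 of 28 were higher and 4 lower, beside 7.89% and 8.82%, and in NK cells 3 of 25 were higher and 2 lower, beside 10.8% and 6.93%. The medians were 0.29, 0.08, -0.14 and 0.14 in these 4 classes, against 0.00, 0.08, -0.01 and 0.08 over all genes.

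Stat3, the factor that the 8 members converge on, had a ratio of 1.62 (1.48 to 1.77) in NK cells and of 1.31, 1.25, 1.21 and 1.30 in monocytes and macrophages, neutrophil-like cells, DCs and T cells, short of 1.5. Socs1, a feedback inhibitor of cytokine receptors, had ratios of 3.34, 3.3 and 1.75 in monocytes and macrophages, neutrophil-like cells and DCs, and of 0.85 (0.720 to 1.01) in NK cells. Socs2 was at 17.3 and 8.74 CPM in monocytes and macrophages, a ratio of 0.505, and had ratios of 0.362 in NK cells and 1.21 in DCs. Cish, induced through STAT5, had ratios of 0.596 in neutrophil-like cells, 0.654 in DCs and 0.654 in NK cells, but 1.40 (1.26 to 1.55) in monocytes and macrophages. Ptpn6, the phosphatase SHP-1, had ratios of 1.51 in neutrophil-like cells, 1.54 in T cells, 1.52 in monocytes and macrophages and 0.762 (0.636 to 0.914) in NK cells.

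Among the related ligands, Il27, a subunit of interleukin 27, was at 3.46 and 17.1 CPM in monocytes and macrophages, a ratio of 4.95 (3.67 to 6.78). Its partner Ebi3 had a ratio of 1.40 there and of 0.281 (0.194 to 0.403) in T cells, from 85 and 50 UMIs. Clcf1 had a ratio of 1.5 (1.01 to 2.28) in T cells. Of the related receptors, Lifr (leukaemia inhibitory factor receptor) was at 45.8 and 29.5 CPM in monocytes and macrophages, a ratio of 0.643, and Il27ra at 3.03 and 1.88 CPM, a ratio of 0.620 (0.360 to 1.04). Of genes induced through STAT3, Bcl3 had ratios of 1.72 in monocytes and macrophages, 1.51 in DCs, 1.57 in NK cells and 0.659 in T cells. Il1rn had a ratio of 1.71 (1.62 to 1.80) in monocytes and macrophages. Zfp36, which destabilises cytokine mRNAs, had 0.624 in T cells. All ratios of pathway genes are given by class only, and the classes differed in label content between the libraries. The CD8+ label, for example, made up 113 of 430 APOE2 and 477 of 910 APOE4 T cells. The part of label content in the pathway ratios was not tested.

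The genes whose levels followed each member most closely over the 19 labels, both libraries summed, were found by the Pearson correlation of log2(CPM + 5); the labels share the 2 libraries and differ in depth, and this is a description. For Il10 they were Maf (0.80), a transcription factor of macrophages and T cells, Cdipt (0.78) and Tspan32 (0.75). For Il6 they were Stom (0.89), Idh1 (0.86) and Lamp1 (0.86), and for Osm Lst1 (0.95), Pygl (0.95) and Lilrb4a (0.95). The receptors had Pim1 (0.87), Actr2 (0.87) and Lcp1 (0.87) for Il10ra, Abcg1 (0.83), Cxcr4 (0.82) and Snx18 (0.82) for Il10rb, Picalm (0.94), Gpr35 (0.93) and Lrrc25 (0.93) for Il6ra, and Thap2 (0.80), Lrrc42 (0.79) and Itm2c (0.78) for Il6st. Socs3 had Rnf149 (0.91), Bach1 (0.89) and Tpd52 (0.89). Among the members themselves the closest pairs were Osm with Socs3 (0.82), Osm with Il6ra (0.76) and Il6ra with Socs3 (0.76), and Il10 was at most 0.26 with any other member.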

How the data were processed

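The authors deposited UMI counts per gene and cell for 2 libraries, made with Cell Ranger 3.0.1 per the file headers, and a table of cell labels with the percent of mitochondrial counts per cell; Seurat 3.0.2 and mm10 are given per the submitters' processing notes. Cells without a deposited label (398 and 304) were left out; doublets were not called. Counts were summed per label or class and library with Python 3.11.15, numpy 2.4.6, scipy 1.17.1 and pandas 2.3.3, and divided by the sum's total (CPM). Poisson, Clopper-Pearson and conditional binomial 95% intervals were exact and were checked on simulated counts. Ratios are APOE4 over APOE2. All 8 members are named. Pathway genes are the 3 highest and 3 lowest ratios per class with at least 50 UMIs and past 1.5-fold, and similar genes the 3 with the highest correlation. Values of Stat3, Ebi3, Bcl3, Il1rn, feedback and dissociation genes outside this rule were chosen after they were seen. One gene that this rule names is not reported here. Members and lists were chosen with earlier results of these data known. Gene positions are from GENCODE, promoter windows from RefSeq. Alternatives changed depth, cell filters, scaling, label weights and thresholds.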

Additional observations from a re-analysis of the deposited data

How the results depend on the processing

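No ratio of a member past 1.5-fold in a class changed direction under the alternatives tried. The count of members past 1.5-fold in monocytes and macrophages went from 2 to 1 with cells thinned to 1500 UMIs, with cells under 5% mitochondrial UMIs, with totals without ribosomal and mitochondrial genes and at 2-fold, where Il10 was the member left. In neutrophil-like cells the count of 1 became 0 at 2-fold and 3 with at least 1 UMI in each library in place of 20 in all. In DCs the count of 0 became 1 with thinned cells, with scaling by the median gene ratio and with at least 1 UMI. In T cells 2 became 1 with thinned cells, under 5% mitochondrial UMIs and at 2-fold, and 3 without the 5% of cells with the most UMIs and in cells without a macrophage marker UMI. In NK cells 2 became 1 with thinned cells, under 5% mitochondrial UMIs, at 2-fold and with at least 100 UMIs, and 4 with at least 1 UMI. Fewer UMIs enter the thinned sums; other causes were not tested. With equal weight per label, the mean of the labels' log2 ratios for Il10 in T cells was -1.68, beside -0.83 for the class. The CD8+ label entered that mean with 3 and 1 UMIs. For Il6ra in T cells the mean was -1.64, beside -1.0, and the NKT label entered it with 4 and 1 UMIs. Such a mean is not the class ratio at equal label shares. Thinning moved Il10ra in NK cells from 1.01 to 1.66. An alternative chosen after seeing the data, T and NK cells without a macrophage marker UMI, moved Il10 in T cells to -1.32 and left the other 10 values it gave within their main interval. No paired analysis was possible because each genotype has 1 library, and no library could be left out. Class sums over both libraries were under 20 UMIs for Il10 in neutrophil-like cells, DCs and NK cells. The same held for Il6 in neutrophil-like cells, T cells and NK cells. The part of depth in these low sums was not tested.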

Other observations

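The Il10 and Il6 UMIs of each library sat in few cells. The 10 cells with the most Il10 held 24.0% of its UMIs in the APOE2 library and 36.4% in the APOE4 library, and the 10 with the most Il6 held 20.9% and 26.1%. For the receptor chains Il10ra, Il10rb and Il6ra the top 10 cells held at most 2.30% in either library. The stromal label had 18 Il6 UMIs in the APOE2 library, 15 of them in 1 cell, and 3 in the APOE4 library.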
